A study of Homo sapiens with 12 samples.

Results

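The response to a gelatin methacryloyl (GelMA) gel was compared between 2 established human pancreatic cancer lines, gene by gene. The question was whether the change from collagen to GelMA was the same in PANC1 as in BXPC3. Messenger RNA had been sequenced in 12 libraries. BXPC3 and PANC1 cells, both kept in high-glucose DMEM with foetal bovine serum and penicillin/streptomycin, were each cultured with collagen, 5% GelMA or 7.5% GelMA as the substrate, with 2 libraries in each of the 6 groups. No other treatment is named, and every group of a line comes from that 1 line. The form of the collagen (gel or coating), gel stiffness and culture time are not stated. The GelMA effect of a line is the mean of its 4 GelMA libraries (equal weight to each concentration) minus its collagen mean, in log2 RPKM (reads corrected for gene length and library size). The line difference is the PANC1 effect minus the BXPC3 effect, so a positive value means that a gene went up more, or down less, in PANC1. Each line has collagen libraries of its own, so the effects of the lines share no control. Of 16299 genes in the table, 13005 reached 1 RPKM in at least 2 libraries of each line and are described here, 11385 of them protein-coding. Of the 13005, 12166 were at 1 RPKM or more in all 12 libraries. The 230 genes that just passed, with exactly 2 such libraries in the line with fewer, had a median line difference of -0.14, and the 244 genes with 1 such library had -0.11. Their median absolute values were 0.64 and 0.46, against 0.24 over all genes described, larger near the limit.

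The labels were compared with known features of the lines. SMAD4, the common mediator of TGF-beta signals that is deleted in BXPC3, was at -5.92 to -5.35 log2 RPKM in BXPC3 and at 3.94 to 4.55 in PANC1. E-cadherin (CDH1) was at 8.22 to 8.40 in BXPC3 and 4.20 to 4.86 in PANC1, and vimentin (VIM) at 5.01 to 5.78 and 11.65 to 11.93. Both lines expressed the ductal keratins KRT8, KRT18 and KRT19 at 9.64 or above in every library. Replicates correlated at 0.9921 to 0.9948 across genes, and the SD of their difference was 0.31 to 0.38, highest for BXPC3 in collagen. Whether replicates came from separate cultures is not stated, so the p-values reflect library-to-library spread alone, possibly technical. The depth of the libraries is unknown, since the table holds no counts.

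Collagen and GelMA both present adhesive protein to cells, but GelMA is gelatin carrying groups that allow it to be cross-linked into a gel of chosen density. A gel sets mechanical resistance and the diffusion of oxygen and nutrients. Cells short of oxygen stabilise the factor HIF1A, which switches on glucose uptake, glycolysis and VEGFA. Cells short of amino acids, or with misfolded protein in the endoplasmic reticulum, raise translation of the factor ATF4, which switches on amino acid transporters, amino acid synthesis and tRNA charging. Oxidants activate NRF2, which switches on antioxidant enzymes, and interferons activate STAT factors, which switch on antiviral genes. Each of these programmes is read below from lists of its known target genes, in the order sensors and factors, then targets. Each count covers the genes of a list that are among the 13005.

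The line difference passed the test for 5538 of the 13005 genes (42.6%). It was above 0 in 2581 (19.8%) and below 0 in 2957 (22.7%), at an adjusted p under 0.05 in limma with Benjamini-Hochberg adjustment, and 445 and 345 of these were at least 2-fold. In 354 of the 13005 genes a line reached 1 RPKM only in its collagen or only in its GelMA libraries, so that they passed the limit through the group where they are high, and 173 of these are among the 5538. The collagen-to-GelMA change itself was called for 2891 higher (22.2%) and 2392 lower genes (18.4%) in BXPC3, and for 3897 higher (30.0%) and 3842 lower genes (29.5%) in PANC1. The spread of the effects over genes was wider in PANC1 (SD 0.54) than in BXPC3 (SD 0.34), while the median SE was 0.07 in both. Of the 5538 genes, 3989 (72.0%) had the larger absolute effect in PANC1. Across genes, which are not independent replicates, the effects of the lines correlated at r = 0.34 (Spearman's rho 0.33).

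The 5538 genes fell into patterns. In 949 of the 13005 genes both lines changed and in opposite directions: 445 rose in PANC1 and fell in BXPC3, and 504 did the reverse. In 7 of the 949 both changes were at least 2-fold. In 2667 genes only the PANC1 effect was called and in 916 only the BXPC3 effect. In 863 genes both changed in the same direction by different amounts, more in PANC1 for 704 and more in BXPC3 for 159, and in 143 neither effect was called alone. A further 1776 genes changed in the same direction in both lines with no called line difference. Of the 5538 genes, 3858 stayed called whichever library was left out.

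**Figure D1:**
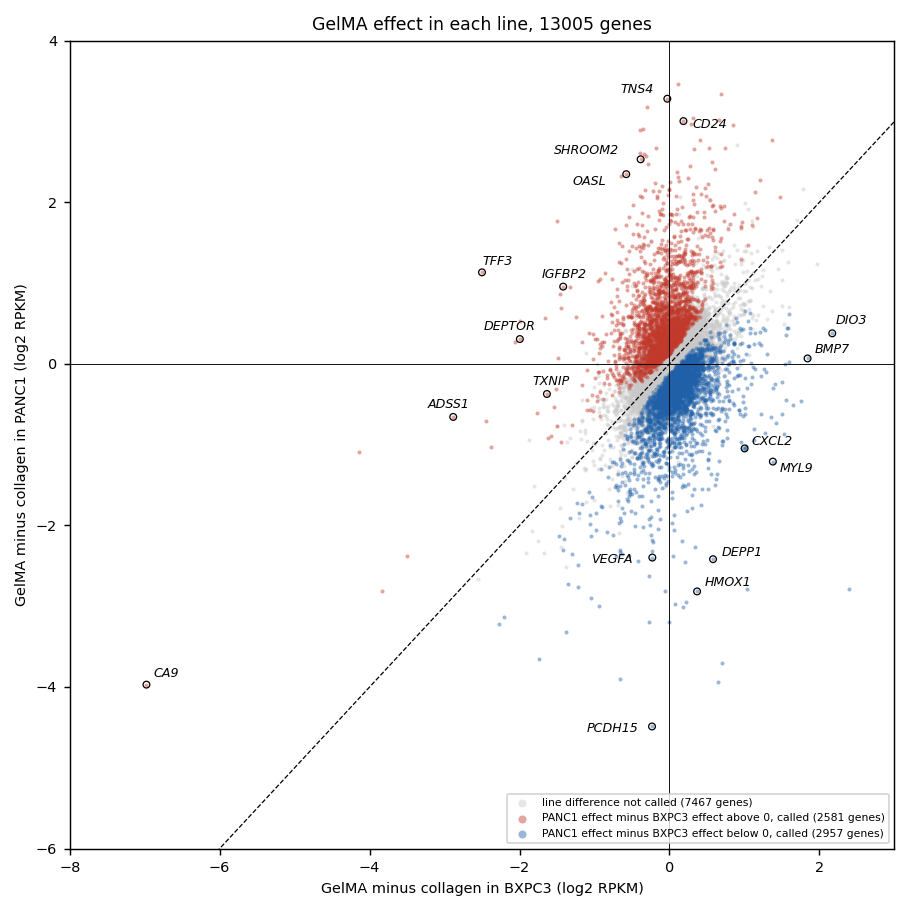
Each point is 1 of 13005 genes, at its GelMA minus collagen difference in BXPC3 (horizontal axis, log2 RPKM) and in PANC1 (vertical axis, log2 RPKM). Red and blue points have a called line difference above or below 0, grey points do not, and the dashed line marks equal effects. The cloud is taller than it is wide, TFF3 and MYL9 lie in quadrants of opposite sign, and CA9 lies far to the left.

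Most hypoxia genes fell in both lines and fell further in PANC1. All 27 hypoxia response genes fell in PANC1 (median -2.06), and 24 fell and 1 rose in BXPC3 (median -0.98). Their line difference was below 0 for 24 of the 27 and above 0 for 2, with a median of -0.92 against -0.02 over all 13005 genes. Of these 26 calls, 24 stayed whichever library was left out, against 3858 of 5538 over all genes. HIF1A, the oxygen-regulated subunit, rose by 0.58 ± 0.08 in BXPC3 and rose by 1.0 ± 0.08 in PANC1, a line difference of 0.41 ± 0.11 (adjusted p = 0.016) that missed the threshold without PANC1 collagen replicate 2 (0.37, adjusted p = 0.0659) and was 0.25 without BXPC3 collagen replicate 1. Its partner ARNT fell by 0.14 in BXPC3 and fell by 0.16 in PANC1, and the ubiquitin ligase subunit VHL fell by 0.18 and fell by 0.29. The line differences of ARNT (-0.02) and VHL (-0.11) did not pass. EPAS1, a relative of HIF1A, differed by 0.17 with a call that 8 of the 12 leave-outs ended. HIF1AN, which hydroxylates HIF1A, differed by 0.36. HIF1A protein is controlled mostly by its stability, which RNA does not show. In bulk RNA, fewer expressing cells and less RNA per cell cannot be told apart, here and below.

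VEGFA, the main angiogenic growth factor (ENSG00000112715, chromosome 6, 43770184 to 43786487), separated the lines most among the lower hypoxia genes. In BXPC3 it was at 9.41 and 9.30 in collagen, 9.14 and 9.07 in 5% GelMA and 9.17 and 9.13 in 7.5% GelMA. In PANC1 it was at 9.13 and 9.36 in collagen, 7.09 and 7.05 in 5% GelMA and 6.61 and 6.63 in 7.5% GelMA. The collagen levels of the lines overlapped, and the GelMA libraries of PANC1 lay below every other library. VEGFA fell by 0.23 ± 0.06 in BXPC3 and fell by 2.40 ± 0.06 in PANC1, a line difference of -2.17 ± 0.08 (adjusted p = 2.09e-07).

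DDIT4, an inhibitor of mTOR signalling, was at 9.40 and 9.37 in collagen, 8.41 and 8.22 in 5% GelMA and 8.02 and 8.04 in 7.5% GelMA in BXPC3. PANC1 levels were 11.19 and 11.28 in collagen, 8.72 and 8.80 in 5% GelMA and 8.73 in both libraries of 7.5% GelMA. PANC1 started higher in collagen and ended within 1 log2 of BXPC3 in GelMA, with a line difference of -1.28 ± 0.07 (adjusted p = 1.7e-06). The adenylate kinase gene AK4 (-1.94), the glycogen-targeting subunit gene PPP1R3C (-2.06), the glycolytic regulator PFKFB4 (-1.37) and the adrenomedullin gene ADM (-1.06) also fell more in PANC1. ADM was at 0.13 in BXPC3 and did not pass there.

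CA9, a cell-surface carbonic anhydrase and one of the most sensitive HIF targets (ENSG00000107159, chromosome 9, 35673856 to 35681159), and EGLN3, an oxygen-sensing prolyl hydroxylase, were the 2 hypoxia genes that fell more in BXPC3. CA9 in BXPC3 was at 4.28 and 5.67 in collagen, -2.43 and -1.61 in 5% GelMA and -1.65 and -2.32 in 7.5% GelMA. The PANC1 libraries were at 2.18 and 2.31 in collagen, 0.75 and 0.64 in 5% GelMA and -4.55 and -3.74 in 7.5% GelMA. Collagen libraries were highest in both lines, the BXPC3 ones well above the PANC1 ones. Of the GelMA libraries, only those of PANC1 in 5% GelMA stayed above 1 RPKM. CA9 is therefore 1 of the 354 genes described above, having passed the limit in BXPC3 through its collagen libraries alone. CA9 fell by 6.98 ± 0.41 in BXPC3 and fell by 3.97 ± 0.41 in PANC1, a line difference of 3.01 ± 0.57 (adjusted p = 0.00237). That difference was 5.44 at 5% GelMA and 0.57 at 7.5% GelMA, and several of these values lie under 1 RPKM, where a log2 difference depends on the offset used. On the log2(RPKM + 1) scale the line difference was 2.91. Taken alone, 7.5% GelMA gave no hypoxia gene called above 0, against 2 at 5% GelMA. EGLN3 fell by 3.51 ± 0.23 in BXPC3 and fell by 2.38 ± 0.23 in PANC1 (line difference 1.13, which was 1.65 without BXPC3 collagen replicate 1 and 0.61 without replicate 2). Its call was lost without PANC1 collagen replicate 2 (1.05, adjusted p = 0.0767).

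HIF binds a short core, ACGTG or GCGTG, known as the hypoxia response element, and its match in the promoters of the hypoxia genes is shown. The 250 bases before the start site were read from RefSeq (GRCh38.p14) for 23 of the 27 genes, and VEGFA had no entry. The core, on either strand, occurred in 19 of 23 (82.6%), in 58.2% of the 9839 promoters found for all genes described, and in 43.1% of 27305 promoters in the table. A match is a string of letters and not a shown binding site. The list was made of known HIF targets, so its matches describe the list and say nothing about what differed between substrates. Below are CA9, which fell most in BXPC3, and AK4, which fell more in PANC1, each 5′ to 3′ toward the start site with the core in capitals (CACGT is ACGTG read on the other strand).
CA9 (chr9:35673678-35673927, forward strand): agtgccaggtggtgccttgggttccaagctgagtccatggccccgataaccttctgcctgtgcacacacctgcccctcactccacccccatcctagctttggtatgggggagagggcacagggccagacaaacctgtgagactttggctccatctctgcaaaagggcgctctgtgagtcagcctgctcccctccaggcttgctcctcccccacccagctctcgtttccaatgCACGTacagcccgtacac
AK4 (chr1:65147302-65147551, forward strand): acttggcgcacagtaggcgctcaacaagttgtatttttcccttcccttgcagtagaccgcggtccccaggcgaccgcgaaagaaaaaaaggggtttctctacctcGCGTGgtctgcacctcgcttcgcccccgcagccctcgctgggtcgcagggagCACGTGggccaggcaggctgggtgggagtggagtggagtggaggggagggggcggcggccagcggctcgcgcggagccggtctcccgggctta
CA9 carries 1 match, close to its start site, and AK4 carries 3, of which 2 share a palindrome.

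Most glycolysis genes fell in both lines. Of 21 genes of glycolysis and lactate export, 13 had a line difference below 0 and 1 above 0, with a median of -0.51. That median was -0.01 at 5% GelMA (8 below 0 and 2 above) and -0.86 at 7.5% (17 below and 1 above). In PANC1 19 fell and 2 rose (median -0.82), and in BXPC3 15 fell and 1 rose (median -0.45). The enzyme of the first step, hexokinase 2 (HK2, -1.66), the aldolases ALDOA (-1.66) and ALDOC (-1.54) and glucose-6-phosphate isomerase (GPI, -1.36) fell more in PANC1. The lactate exporter SLC16A3 fell more in PANC1 (-1.14), while the related carrier SLC16A1 went the other way (0.62). LDHA, which makes lactate, fell by 1.13 in BXPC3 and fell by 0.81 in PANC1. Its line difference of 0.32 did not pass (adjusted p = 0.078), and it passed at 0.53 without BXPC3 collagen replicate 1.

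Genes of amino acid supply moved apart. Of 24 ATF4 targets, 20 fell and 2 rose in PANC1 (median -0.85), and 13 rose and 2 fell in BXPC3 (median 0.22). Line differences were below 0 in 19 and above 0 in 1, with a median of -1.04. The lines changed in opposite directions in 10 of the 24, against 949 of 13005 over all genes. Of the 20 calls, 17 stayed whichever library was left out, against 3858 of 5538. The transcript of ATF4 itself rose by 0.17 ± 0.04 in BXPC3 and fell by 0.46 ± 0.04 in PANC1 (line difference -0.62 ± 0.05, adjusted p = 1.96e-05). Of the kinases upstream of it, the amino acid sensor EIF2AK4 differed by -0.25 and the endoplasmic reticulum sensor EIF2AK3 by -0.17, which did not pass. ASNS, a classic ATF4 target, was under 1 RPKM in all BXPC3 libraries and was therefore not among the 13005 genes.

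CHAC1, which degrades glutathione (ENSG00000128965, chromosome 15, 40952962 to 40956519), was at 2.79 and 2.40 in collagen, 3.55 and 3.20 in 5% GelMA and 3.06 and 3.03 in 7.5% GelMA in BXPC3. Levels in PANC1 were 6.14 and 6.07 in collagen, 4.28 and 4.36 in 5% GelMA and 4.99 and 5.09 in 7.5% GelMA. The BXPC3 collagen libraries were the lowest of their line and the PANC1 collagen libraries the highest of theirs, without overlap with GelMA. CHAC1 rose by 0.62 ± 0.11 in BXPC3 and fell by 1.43 ± 0.11 in PANC1, a line difference of -2.04 ± 0.16 (adjusted p = 1.12e-05).

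TRIB3, a pseudokinase that feeds back on ATF4, was at 4.26 and 3.74 in collagen, 5.31 and 4.92 in 5% GelMA and 4.79 and 4.93 in 7.5% GelMA in BXPC3. In PANC1 it was at 5.92 in both libraries of collagen, 4.54 and 4.55 in 5% GelMA and 5.19 and 5.22 in 7.5% GelMA. It rose by 0.98 ± 0.13 in BXPC3 and fell by 1.05 ± 0.13 in PANC1 (adjusted p = 3.06e-05 for the line difference of -2.03 ± 0.19), so the lines were further apart in collagen than in 5% or 7.5% GelMA. DDIT3, the stress factor CHOP, differed by -2.0. The cystine transporter SLC7A11 (-1.68), the mTORC1 inhibitor SESN2 (-1.69), cystathionase (CTH, -1.67) and the folate enzyme MTHFD2 (-1.22) were lower in the same sense. ATF5 rose in both lines (line difference -0.02), and the glutamine transporter SLC38A2 was the 1 gene with a positive difference, 0.30, which 4 of the 12 leave-outs ended.

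The composite site bound by ATF4 with C/EBP factors, TTGCATCA or its reverse TGATGCAA, occurred in 1 of 19 promoters of the list (5.26%), against 0.335% of promoters of all genes described and 0.82% of all promoters in the table. That promoter, of CHAC1, is shown with the site in capitals. This 8-letter string is only 1 form of the site, and the other windows say nothing about the factor. As the list was made of known ATF4 targets, the match describes the list and not what differed between substrates.
CHAC1 (chr15:40953221-40953470, forward strand): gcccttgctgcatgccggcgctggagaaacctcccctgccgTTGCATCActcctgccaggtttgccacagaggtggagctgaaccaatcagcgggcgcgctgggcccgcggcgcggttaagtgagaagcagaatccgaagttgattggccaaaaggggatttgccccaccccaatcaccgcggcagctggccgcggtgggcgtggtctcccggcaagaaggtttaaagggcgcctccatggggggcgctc

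The enzymes that charge tRNA were also split between the lines. Of 20 cytosolic aminoacyl-tRNA synthetases, 17 rose and 1 fell in BXPC3, and 13 fell and 3 rose in PANC1. The line difference was below 0 in 17 and above 0 in 1 (median -0.58). In 11 of the 20 the lines changed in opposite directions, against 949 of 13005 over all genes. The glycyl enzyme GARS1 was the lowest (-1.12), followed by YARS1 (-0.93) and WARS1 (-0.85), and the glutaminyl enzyme QARS1 was the 1 above 0 (0.32). Ribosomal protein genes fell in PANC1 in 34 of 40 (median -0.40) and in BXPC3 in 18 of 40, with a line difference below 0 in 28 and above 0 in none (median -0.30). Genes of ribosome assembly rose in 17 of 21 in BXPC3 and in 8 of 21 in PANC1, and 13 had a line difference below 0 and none above. Among 20 genes of the unfolded protein response, 11 were below 0 and 1 above. The chaperone HSPA5 was at 0.01 ± 0.05, which did not pass, in BXPC3 and fell by 0.74 ± 0.05 in PANC1, and HERPUD1, which helps clear misfolded protein, was the lowest of the list (-1.10).

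Antioxidant genes mostly fell in PANC1 and mostly rose in BXPC3. Of 19 NRF2 targets, 13 fell and 3 rose in PANC1, and 12 rose and 1 fell in BXPC3. Line differences were below 0 in 16 and above 0 in 1 (median -0.72). The lines changed in opposite directions in 8 of the 19, against 949 of 13005 over all genes. Of the 17 calls, 15 stayed in every leave-out, against 3858 of 5538. The transcript of NRF2 (NFE2L2) was at -0.04 ± 0.04, which did not pass, in BXPC3 and fell by 0.51 ± 0.04 in PANC1 (line difference -0.48), and that of its inhibitor KEAP1 differed by -0.04, which did not pass. The repressor BACH1 was at -0.17, a call that 10 of the 12 leave-outs and 6 other settings ended.

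HMOX1, heme oxygenase 1 (ENSG00000100292, chromosome 22, 35380361 to 35394214), was at 2.64 and 2.16 in collagen, 3.07 and 2.82 in 5% GelMA and 2.60 and 2.59 in 7.5% GelMA in BXPC3. PANC1 levels were 8.88 and 9.02 in collagen, 6.05 and 6.15 in 5% GelMA and 6.15 and 6.19 in 7.5% GelMA. PANC1 collagen libraries were the highest, and its GelMA libraries still lay more than 2 log2 above every BXPC3 library. In BXPC3 the GelMA and collagen libraries overlapped. HMOX1 rose by 0.37 ± 0.12 in BXPC3 and fell by 2.82 ± 0.12 in PANC1, a line difference of -3.19 ± 0.16 (adjusted p = 9.8e-07). OSGIN1, an oxidant-induced growth inhibitor (-2.11), the glutathione synthesis subunit GCLM (-1.25) and thioredoxin reductase 1 (TXNRD1, -1.03) followed. The pentose phosphate enzyme PGD (-0.02) rose in both lines with no called line difference. The drug transporter ABCC3 was the 1 gene above 0 (0.76). Of 11 iron genes, HMOX1 among them, 7 had a line difference below 0 and 2 above. In PANC1 6 of the 11 rose and 5 fell, in BXPC3 5 rose and 3 fell, and 3 changed in opposite directions. NCOA4, which sends ferritin to the lysosome, had the highest line difference (0.75). SLC7A11 is on both this list and that of ATF4 targets, and HMOX1 on both this and the iron list.

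**Figure D2:**
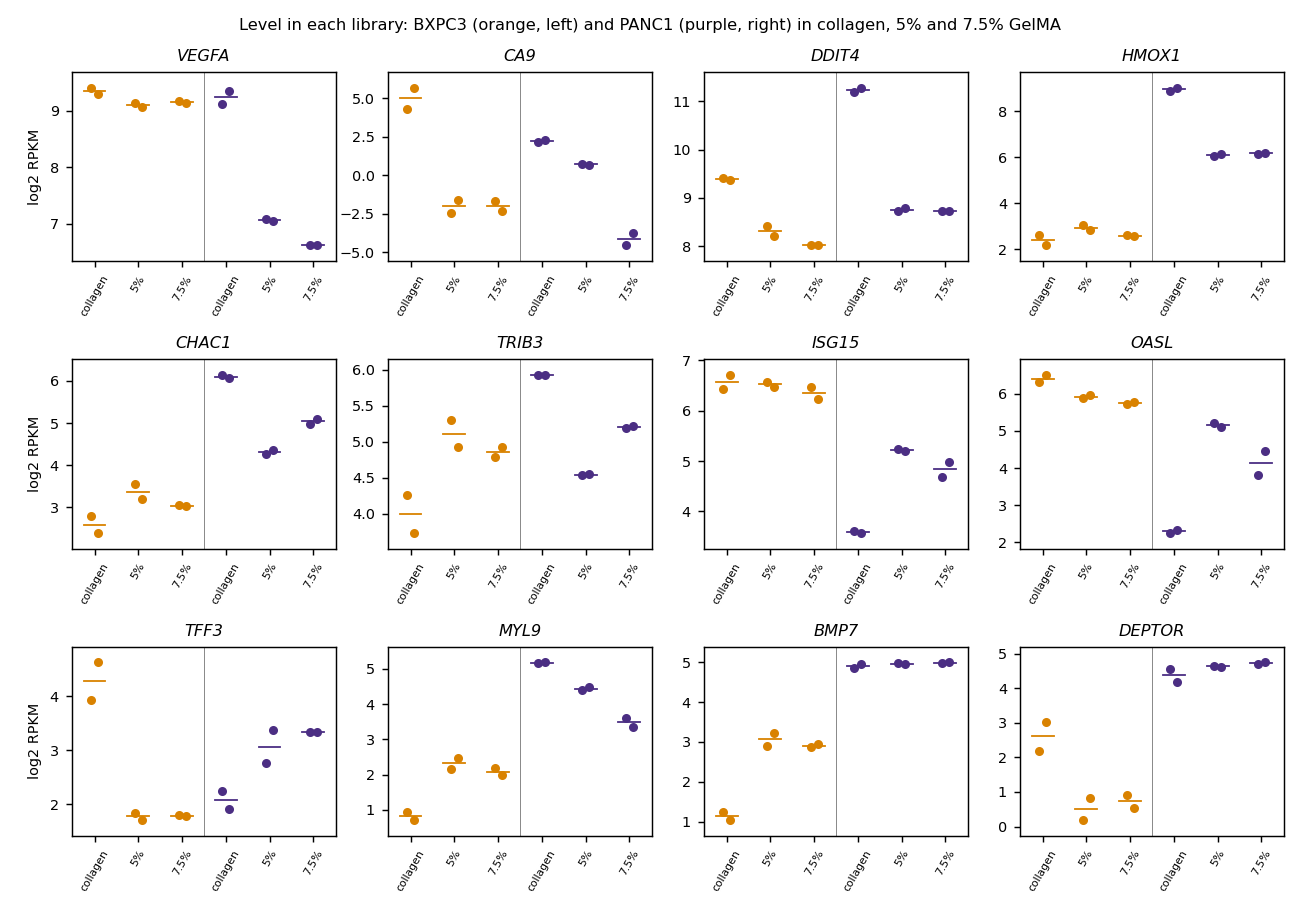
The log2 RPKM of 12 genes is plotted for every library, with BXPC3 in orange and PANC1 in purple, each in collagen, 5% GelMA and 7.5% GelMA, and a bar at each group mean. Each panel has its own vertical scale. VEGFA and HMOX1 drop from collagen to GelMA in PANC1 while BXPC3 stays within 1 log2 of its collagen mean, OASL and ISG15 climb only in PANC1, and MYL9 and TFF3 move in opposite directions.

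Interferon genes had line differences in the other direction. Of 29 interferon-stimulated genes, the line difference was above 0 in 23 and below 0 in 1, with a median of 0.90. In PANC1 24 rose and 4 fell (median 0.55), and in BXPC3 14 fell and 0 rose (median -0.21). In 10 of the 29 the lines changed in opposite directions, against 949 of 13005 over all genes. All 24 stayed called in every leave-out, against 3858 of 5538. Of the factors, STAT2 differed by 0.32, while IRF1 (-0.08) and IRF3 (-0.05) did not pass. IRF1 was called in opposite directions at the 2 concentrations, 0.18 at 5% GelMA (adjusted p = 0.0492) and -0.34 at 7.5% (adjusted p = 0.00219). OASL, ISG15 and IFIT3 were higher in every BXPC3 library than in any PANC1 library.

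OASL, an antiviral protein related to oligoadenylate synthetases (ENSG00000135114, chromosome 12, 121019111 to 121039242), was at 6.31 and 6.50 in collagen, 5.89 and 5.95 in 5% GelMA and 5.72 and 5.77 in 7.5% GelMA in BXPC3. The PANC1 libraries were at 2.26 and 2.33 in collagen, 5.22 and 5.10 in 5% GelMA and 3.81 and 4.45 in 7.5% GelMA. All PANC1 GelMA libraries were above the PANC1 collagen libraries and below every BXPC3 library, and the 7.5% replicates differed by more than those of any other group. OASL fell by 0.58 ± 0.14 in BXPC3 and rose by 2.35 ± 0.14 in PANC1, a line difference of 2.92 ± 0.20 (adjusted p = 4e-06).

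ISG15, a ubiquitin-like protein attached to others after interferon, was at 6.42 and 6.70 in collagen, 6.57 and 6.48 in 5% GelMA and 6.46 and 6.22 in 7.5% GelMA in BXPC3. Levels in PANC1 were 3.61 and 3.58 in collagen, 5.24 and 5.20 in 5% GelMA and 4.68 and 4.99 in 7.5% GelMA. It was at -0.13 ± 0.10, which did not pass, in BXPC3 and rose by 1.44 ± 0.10 in PANC1 (line difference 1.57 ± 0.14, adjusted p = 2.46e-05). The translation inhibitors IFIT2 (2.01), IFIT3 (1.97) and IFIT1 (1.55), the RNA sensor IFIH1 (1.03) and the synthetase OAS2 (2.08) moved the same way. IFI6, which protects cells from viral replication and from apoptosis, fell by 0.70 ± 0.11 in BXPC3 and rose by 0.84 ± 0.11 in PANC1, where it was at 1.68 in 5% GelMA and at 0.02 in 7.5% GelMA, with libraries that overlap those of collagen. MX2 was the 1 gene below 0 (-0.46), and IFITM1 fell in both lines (line difference 0.07, not called). In PANC1 IFITM1 was at -0.12 in 5% GelMA, overlapping collagen, and at -1.30 in 7.5% GelMA. RSAD2, viperin, had a difference of 1.93 that did not pass. Genes that load and present class I antigen were above 0 in 6 of 12 and below 0 in none (median 0.18), led by the coactivator NLRC5 (0.90). Of these 6 calls, 4 stayed whichever library was left out, against 3858 of 5538 over all genes. At 5% GelMA 5 of the 12 were above 0 and none below (median 0.19). At 7.5% GelMA 4 were above 0 and 2 below (median 0.015). Class I genes are near-identical in sequence, so reads may be shared among them.

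The factors activated by interferon bind the interferon-stimulated response element, searched here as GAAANNGAAA on either strand. It occurred in 14 of the 23 promoters found for the list (60.9%), in 2.25% of promoters of all genes described and in 3.07% of all promoters in the table. OASL had no entry. The promoters of IFIT3 and ISG15, both of which rose in PANC1, are shown with matches in capitals (TTTCNNTTTC is that motif on the other strand).
IFIT3 (chr10:89327747-89327996, forward strand): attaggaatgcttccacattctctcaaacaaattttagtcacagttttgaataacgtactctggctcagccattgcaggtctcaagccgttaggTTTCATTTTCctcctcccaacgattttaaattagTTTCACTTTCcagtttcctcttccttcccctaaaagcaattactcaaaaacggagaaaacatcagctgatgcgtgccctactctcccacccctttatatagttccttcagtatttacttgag
ISG15 (chr1:1013247-1013496, forward strand): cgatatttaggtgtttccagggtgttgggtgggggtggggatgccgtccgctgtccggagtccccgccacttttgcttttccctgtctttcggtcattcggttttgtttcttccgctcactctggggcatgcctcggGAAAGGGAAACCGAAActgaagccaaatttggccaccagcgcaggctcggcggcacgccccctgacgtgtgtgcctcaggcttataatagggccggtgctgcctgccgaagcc
Each carries 2 matches, which overlap in ISG15. Genes on this list are known from textbooks to be interferon targets. The presence of the motif therefore describes the list and says nothing about what differed between substrates.

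**Figure D3:**
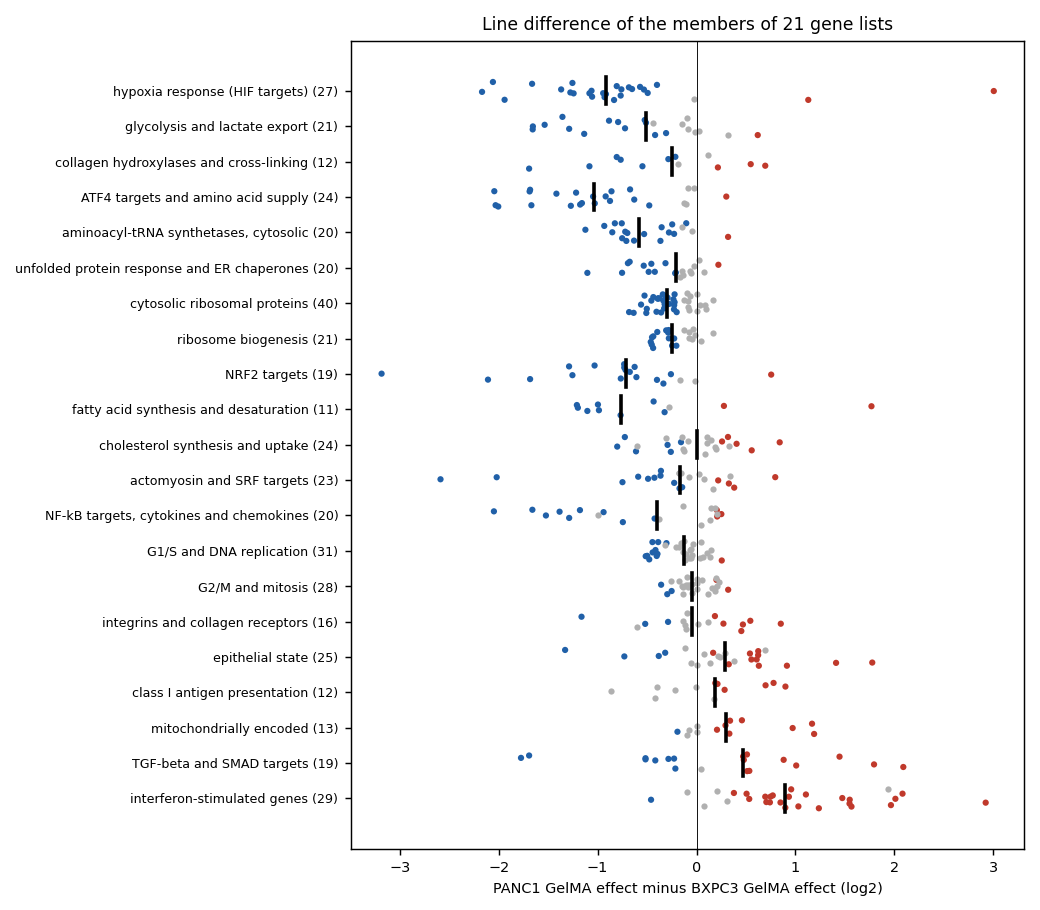
Each point is 1 gene at its line difference (log2, PANC1 effect minus BXPC3 effect) in 21 lists, with the number of genes in brackets. Red and blue points were called above or below 0, grey points were not called, and the black bar is the list median, -1.04 for ATF4 targets and 0.90 for interferon-stimulated genes.

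Lipid genes divided by branch. Cholesterol synthesis rose in both lines, in 21 of 24 genes in BXPC3 and 19 of 24 in PANC1, with 0 falling in either. The line difference was above 0 in 5, below 0 in 6, and 0.00 at the median. At 5% GelMA 8 were above 0 and 2 below (median 0.19), and at 7.5% 3 were above 0 and 10 below (median -0.26). HMGCS1, which makes HMG-CoA, rose more in BXPC3 (-0.80). Fatty acid genes did not rise together: 7 of 11 rose in BXPC3, and 2 rose and 4 fell in PANC1. The line difference was below 0 in 8 and above 0 in 2 (median -0.77).

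Fatty acid synthase (FASN) was at 9.01 and 8.28 in collagen, 10.04 and 9.87 in 5% GelMA and 9.59 and 9.64 in 7.5% GelMA in BXPC3. In PANC1 it was at 8.82 and 8.89 in collagen, 9.09 and 9.07 in 5% GelMA and 8.51 and 8.47 in 7.5% GelMA. It rose by 1.14 ± 0.15 in BXPC3 and was at -0.07 ± 0.15, which did not pass, in PANC1 with a line difference of -1.21 ± 0.21 (adjusted p = 0.00137). With 1 library left out it ranged from -1.57 to -0.85, the ends coming from the BXPC3 collagen replicates, which differ from each other. The regulator SREBF1 (-1.20), the acetate-activating ACSS2 (-1.10) and the desaturase SCD (-1.0) went the same way. SCD was at -1.34 without BXPC3 collagen replicate 1 and -0.65 without replicate 2. The elongase ELOVL6 went the other way (1.77, or 1.17 on the log2(RPKM + 1) scale, since PANC1 collagen was near 1 RPKM).

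Matrix and adhesion genes were split in both directions. Of 11 collagen genes, 6 were above 0 and 3 below. COL1A1, a chain of fibrillar type I collagen, was at 3.22 and 3.16 in collagen, 3.47 and 3.38 in 5% GelMA and 3.38 and 3.33 in 7.5% GelMA in BXPC3. PANC1 levels were 6.52 and 6.49 in collagen, 7.72 and 7.75 in 5% GelMA and 8.48 and 8.71 in 7.5% GelMA. COL3A1, a chain of the companion type III collagen, was at 2.70 and 2.67 in collagen, 2.33 in both libraries of 5% GelMA and 2.44 and 2.54 in 7.5% GelMA in BXPC3, and in PANC1 at 5.62 and 5.84 in collagen, 3.49 and 3.58 in 5% GelMA and 2.51 and 2.86 in 7.5% GelMA. In PANC1 COL1A1 was higher in 7.5% than in 5% GelMA and lowest in collagen, and COL3A1 had the reverse order, with line differences of 1.46 ± 0.08 and -2.34 ± 0.15. COL6A1 fell by 0.67 ± 0.04 in BXPC3 and rose by 0.77 ± 0.04 in PANC1. The enzymes that hydroxylate and cross-link collagen were below 0 in 7 of 12 and above in 3: the transglutaminase TGM2 was lowest (-1.69), and the lysyl hydroxylase PLOD2 was highest (0.69), having fallen more in BXPC3.

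Of 16 integrins and collagen receptors, 6 were above 0 and 3 below, against 19.8% and 22.7% over all 13005 genes. ITGB5, a vitronectin receptor subunit, was highest (0.85), and ITGB4, the hemidesmosome subunit, lowest (-1.16). ITGB1, the partner in most collagen receptors, was at -0.13 and did not pass, though it passed at -0.21 without BXPC3 collagen replicate 1. Of 20 proteases and inhibitors, 9 were above 0 and 6 below, with the inhibitor TIMP3 at 2.29 ± 0.13 (1.56 on the log2(RPKM + 1) scale, with PANC1 under 1 RPKM in collagen), the urokinase receptor PLAUR at -1.03 and the membrane collagenase MMP14 at -0.73. Fibronectin (FN1) was at -0.20, not called, and at -0.62 (adjusted p = 0.0485) without BXPC3 collagen replicate 2. Thrombospondin 1 (THBS1) rose by 0.34 ± 0.03 in BXPC3 and rose by 1.66 ± 0.03 in PANC1, a line difference of 1.32.

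TGF-beta signals act in part through SMAD4, which BXPC3 lacks, and its part in the line differences was not tested. Of 19 TGF-beta and BMP pathway genes, 5 rose and 9 fell in BXPC3, and 9 rose and 5 fell in PANC1. The line difference was above 0 in 10 and below in 8 (median 0.47). In 8 of the 19 the lines changed in opposite directions, against 949 of 13005 over all genes. LTBP2, a latent TGF-beta binding protein family member, was at 5.0 and 4.94 in collagen, 4.31 and 4.37 in 5% GelMA and 4.36 and 4.29 in 7.5% GelMA in BXPC3. The PANC1 libraries were at 5.70 and 5.75 in collagen, 6.79 and 6.80 in 5% GelMA and 7.50 and 7.64 in 7.5% GelMA, the highest in 7.5% GelMA, for a line difference of 2.09 ± 0.06 (adjusted p = 8.4e-08). The ligand BMP4 (1.79), the decoy receptor BAMBI (1.45) and the inhibitory SMAD6 (0.88) and SMAD7 (0.51) were above 0. The ligand subunit INHBA (-1.69) was below 0. The corepressor SKI was the 1 gene without a call (0.05).

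YAP/TAZ targets gave no common direction, while actomyosin and SRF targets were more often below 0. Of 22 YAP/TAZ targets, 4 were above 0 and 6 below (median 0.02), against 19.8% above and 22.7% below over all 13005 genes. CCN1, a matrix-bound YAP target, rose in both lines and more in PANC1 (0.43), while its relative CCN2 rose by 1.21 ± 0.15 in BXPC3 and was at 0.24 ± 0.15, which did not pass, in PANC1 (line difference -0.98, or -0.60 on the log2(RPKM + 1) scale). The angiomotin family member AMOTL1 was highest (1.61) and the stress gene GADD45A lowest (-1.31). WWTR1, which encodes TAZ, differed by 0.36, and YAP1 by -0.10, which did not pass. Of 23 actomyosin and SRF targets, 4 were above 0 and 11 below (median -0.17), beside the same shares of 19.8% and 22.7%.

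MYL9, the regulatory light chain of smooth muscle and non-muscle myosin (ENSG00000101335, chromosome 20, 36541484 to 36551447), was at 0.94 and 0.71 in collagen, 2.17 and 2.48 in 5% GelMA and 2.18 and 1.99 in 7.5% GelMA in BXPC3. Levels in PANC1 were 5.16 and 5.18 in collagen, 4.40 and 4.48 in 5% GelMA and 3.62 and 3.35 in 7.5% GelMA. Every GelMA library was above collagen in BXPC3 and below it in PANC1. It rose by 1.38 ± 0.12 in BXPC3 and fell by 1.21 ± 0.12 in PANC1, a line difference of -2.59 ± 0.17 (adjusted p = 3.38e-06). The BXPC3 collagen values lie near 1 RPKM.

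TFF3, a trefoil peptide secreted with mucus (ENSG00000160180, chromosome 21, 42311667 to 42315651), had the highest line difference among the genes that were named by rule. It was at 3.93 and 4.63 in collagen, 1.84 and 1.71 in 5% GelMA and 1.80 and 1.77 in 7.5% GelMA in BXPC3. In PANC1 it was at 2.24 and 1.91 in collagen, 2.76 and 3.38 in 5% GelMA and 3.34 in both libraries of 7.5% GelMA. It fell by 2.50 ± 0.21 in BXPC3 and rose by 1.13 ± 0.21 in PANC1, a line difference of 3.63 ± 0.29 (adjusted p = 1.31e-05). The other genes that rose in PANC1 and fell in BXPC3 by the most in both were the gap junction protein GJA1 (-0.96 in BXPC3 and 1.03 in PANC1), the insulin-like growth factor carrier IGFBP2 (-1.42 and 0.96), the zinc-finger gene HIVEP3 (-0.76 and 1.05), IFI6 (through 5% GelMA) and the unnamed gene ENSG00000272668. Those that did the reverse were MYL9, the chemokine CXCL2 (1.0 and -1.05), TRIB3, the mannosidase MAN1A1 (1.13 and -0.95), PALM (1.13 and -0.81) and the chloride channel BEST1 (0.77 and -0.82). CXCL2 was at 2.85 and 2.64 in collagen, 3.18 and 3.0 in 5% GelMA and 0.42 and 0.19 in 7.5% GelMA in PANC1, so it was lower than collagen at 7.5% and not at 5% GelMA.

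Several of the largest line differences were changes in PANC1 beside little change in BXPC3. CD24, a mucin-like surface glycoprotein, was at 8.03 and 8.02 in collagen, 8.29 and 8.24 in 5% GelMA and 8.14 and 8.18 in 7.5% GelMA in BXPC3. PANC1 levels were 6.52 and 6.22 in collagen, 9.14 and 9.09 in 5% GelMA and 9.64 and 9.63 in 7.5% GelMA. PANC1 passed from below BXPC3 in collagen to above it in GelMA, with a line difference of 2.82 ± 0.09 (adjusted p = 1.07e-07). SHROOM2, an apical actin regulator, differed by 2.92, the ankyrin-repeat gene SOWAHB by 3.35, and the focal adhesion protein TNS4 by 3.31 (1.85 on the log2(RPKM + 1) scale, as PANC1 collagen was under 1 RPKM). ALPP (3.49) and ALPG (3.26) are near-identical alkaline phosphatase genes that can share reads, so their values are uncertain.

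On the lower side, the protocadherin PCDH15 was at 4.73 and 4.83 in collagen, 1.0 and 1.64 in 5% GelMA and -0.42 and -1.05 in 7.5% GelMA in PANC1, and in BXPC3 at 3.67 and 4.22 in collagen, 3.84 and 3.22 in 5% GelMA and 3.91 and 3.87 in 7.5% GelMA, a line difference of -4.26 ± 0.35. DEPP1, a gene induced by progesterone and FOXO factors, rose by 0.58 ± 0.07 in BXPC3 and fell by 2.42 ± 0.07 in PANC1. The Kunitz-type protease inhibitor TFPI2 (-3.18), the lipolysis inhibitor G0S2 (-3.18), the transcription factor FOXP2 (-2.92), the synaptic adhesion gene LRRTM4 (-2.60) and the receptor NOTCH3 (-2.09) also fell in PANC1 with no called effect in BXPC3. In PANC1 GelMA, G0S2 and LRRTM4 were spread over more than 1 log2 between replicates of 5% GelMA. On the log2(RPKM + 1) scale PCDH15 was at -3.37, FOXP2 at -2.045 and LRRTM4 at -1.795, as some of their PANC1 GelMA libraries were under 1 RPKM.

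In 916 of the genes with a called line difference, BXPC3 alone had a called effect. DEPTOR, an inhibitor of mTOR kinase, was at 2.19 and 3.03 in collagen, 0.19 and 0.82 in 5% GelMA and 0.92 and 0.54 in 7.5% GelMA in BXPC3. The PANC1 libraries were at 4.56 and 4.18 in collagen, 4.63 and 4.62 in 5% GelMA and 4.70 and 4.75 in 7.5% GelMA. BMP7, a bone morphogenetic protein, was at 1.24 and 1.04 in collagen, 2.91 and 3.22 in 5% GelMA and 2.87 and 2.94 in 7.5% GelMA in BXPC3, and in PANC1 at 4.86 and 4.97 in collagen, 4.98 and 4.96 in 5% GelMA and 4.99 and 5.0 in 7.5% GelMA. DEPTOR fell by 2.0 ± 0.24 and BMP7 rose by 1.84 ± 0.09 in BXPC3, and BMP7 in PANC1 stayed within 0.1 log2 of its collagen mean (line differences 2.30 ± 0.34 and -1.77 ± 0.13). Netrin 1 (NTN1, 1.54 in BXPC3) and the polarity gene PARD3B (1.58) rose in BXPC3 (line difference of PARD3B -1.14, but -0.68 without BXPC3 collagen replicate 2), as did the unnamed gene ENSG00000279443, whose line difference 5 leave-outs ended. The creatine transporter SLC6A8 fell there (-1.51). In PANC1 SLC6A8 (-0.31) and PARD3B (0.44) moved the same way without passing, with no overlap between GelMA and collagen libraries.

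Among the 159 genes that changed the same way and more in BXPC3, CA9 led, though it passed the limit there through collagen alone. With the BXPC3 effect given first and the PANC1 effect second, the adenylosuccinate synthase ADSS1 fell by 2.88 and fell by 0.66, IZUMO4 fell by 2.44 and fell by 0.71, and the matrix protein MXRA5 fell by 2.38 and fell by 1.03. TXNIP, a glucose-responsive inhibitor of thioredoxin and of glucose uptake, fell by 1.64 and fell by 0.37. In PANC1 TXNIP was at -0.69 in 5% GelMA and at -0.06 in 7.5% GelMA, where it overlapped collagen. DIO3, which inactivates thyroid hormone, rose by 2.17 and rose by 0.38 (line difference -1.79, or -1.09 on the log2(RPKM + 1) scale, as BXPC3 collagen was at 1 RPKM).

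More epithelial genes rose in PANC1 than in BXPC3. Of 25, 15 rose and 4 fell in PANC1, and 4 rose and 1 fell in BXPC3, with a line difference above 0 in 11 and below 0 in 4 (median 0.28). E-cadherin (CDH1) differed by 0.62 ± 0.07, the adhesion molecule EPCAM by 0.91 and the protease inhibitor SPINT1 by 1.41, while claudin 7 (CLDN7) went the other way (-1.33). KRT8 (0.00) and KRT19 (-0.05) had no called line difference. Of 9 mesenchymal genes, 1 was above 0 and 1 below. The first, cadherin 11 (CDH11), differed by 1.72, but only by 0.38 on the log2(RPKM + 1) scale, since in PANC1 it reached 1 RPKM in 5% GelMA alone. VIM was at 0.31, not called, and at 0.70 without BXPC3 collagen replicate 1. Of 9 genes of the classical pancreatic subtype, which marks better differentiated tumours, 5 were above 0 and none below: TFF3, the tetraspanin TSPAN8 (2.16), the mucus-cell protein AGR2 (1.57) and the endodermal factors GATA6 (1.34) and FOXA2 (1.0). MUC1 (-0.06) was not called, and 17 of the 26 genes of this list were not among the 13005. The counts therefore cover only the part of the list that passed the limit. A gene under 1 RPKM in both collagen libraries of a line passed there only through its GelMA libraries.

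Proliferation genes had small line differences. DNA replication genes rose in 24 of 31 in BXPC3 and 11 of 31 in PANC1, with a line difference below 0 in 10 and above 0 in 1 (median -0.13), CDC6, which loads the replicative helicase, being the lowest (-0.51). Mitotic genes were below 0 in 3 of 28 and above in 2, and MKI67 was at 0.19 and CDKN1A at 0.11, neither called. MYC rose by 0.32 ± 0.03 in BXPC3 and fell by 0.74 ± 0.03 in PANC1. Over all 13005 genes, 19.8% were called above 0 and 22.7% below. Immediate early genes were above 0 in 8 of 25 and below in 7, from FOSB (1.35) to MYC (-1.06). NF-kB targets were below 0 in 9 of 20 and above in 3. Wnt feedback genes were above 0 in 4 of 7, including AXIN2 (1.24), and below in 1, TCF7 (-0.68, or -0.44 on the log2(RPKM + 1) scale). Notch genes were above 0 in 5 of 11 and below in 4, from the ligand DLL1 (1.38) to NOTCH3.

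The remaining counts stand beside shares of 19.8% called above 0 and 22.7% below over all 13005 genes. Laminins and basement membrane genes were above 0 in 5 of 13 and below in 1, and p53 targets in 4 and 3 of 15. Heat shock genes were above 0 in 3 and below in 4 of 13, and lysosomal genes in 7 and 6 of 22. Nuclear genes of oxidative phosphorylation were above 0 in 3 of 31 and below in 8, with UQCRC2, a subunit of complex III, at -1.37. Mitochondrially encoded genes were above 0 in 8 of 13 and below in 1 (median 0.29). At the highest levels a value follows from rank alone, as ranked values were equal in all libraries. MT-CO2 was at 13.336 in every BXPC3 and 12.902 in every PANC1 library. The 1 gene below 0, MT-ND5 (-0.19), was at 12.422 or 12.519 in every library and stayed called in 8 of the 12 leave-outs. Replication-dependent histones, whose copies share reads, were above 0 in 7 and below in 2 of 12. Poly-A capture recovers histone transcripts poorly, and both lists can move with RNA quality. The part of RNA quality in any result was not tested. Metallothioneins were above 0 in 2 of 7, and both calls were lost in 1 or more leave-outs. Of 6 neuropeptide genes, the hormone genes PTHLH (1.99, or 1.31 on the log2(RPKM + 1) scale, as PANC1 collagen was near 1 RPKM), UCN2 (1.51) and SCG2 (0.99) were above 0 and ADM2 (-1.63) below. The call of SCG2 was lost in 10 of the 12 leave-outs, and without BXPC3 collagen replicate 1 its difference was 0.47, against 1.52 without replicate 2. TAC3, neurokinin B, was under 1 RPKM in every BXPC3 library and not among the 13005 genes. Squamous genes were above 0 in 2 of 4.

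The concentrations could be compared without collagen. The line difference was called for 34.4% of the 13005 genes at 5% GelMA and for 40.2% at 7.5%, each against the same collagen libraries. Whether the line difference changed between concentrations does not use collagen at all: it is the 7.5% minus 5% change in PANC1 minus that in BXPC3, and 1318 genes (10.1%) were called, 589 above 0 and 729 below. The programmes differed in direction. Hypoxia genes were below 0 in 16 of 27 and above in none (median -0.69), and glycolysis genes below 0 in 16 of 21 and above in none (median -0.67). ATF4 targets were above 0 in 17 of 24 and below in 1 (median 0.72). Interferon genes were below 0 in 15 of 29 and above in none (median -0.59), and cholesterol genes in 9 of 24 and none. The median over all 13005 genes was 0.00.

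In group medians, hypoxia genes in PANC1 were at -1.59 relative to collagen on the log2 scale at 5% GelMA and -2.33 at 7.5%, while in BXPC3 they were at -0.99 and -1.03. Interferon genes in PANC1 were at 0.97 and 0.10, and in BXPC3 at -0.16 and -0.38. ATF4 targets in PANC1 were at -1.02 and -0.62. In single genes, AK4 in PANC1 was at 6.35 and 6.34 in collagen, 4.74 and 4.73 in 5% GelMA and 1.20 and 1.44 in 7.5% GelMA, so most of its fall came in the 7.5% gel (7.5% minus 5% line difference -3.80). CA9 differed by -4.88 ± 0.66 (adjusted p = 0.00238), OAS1 by -1.62, MX1 by -1.53, ATF3 by 1.83 and CHAC1 by 1.05. VEGFA differed by -0.49 and DDIT3 by 0.82.

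**Figure D4:**
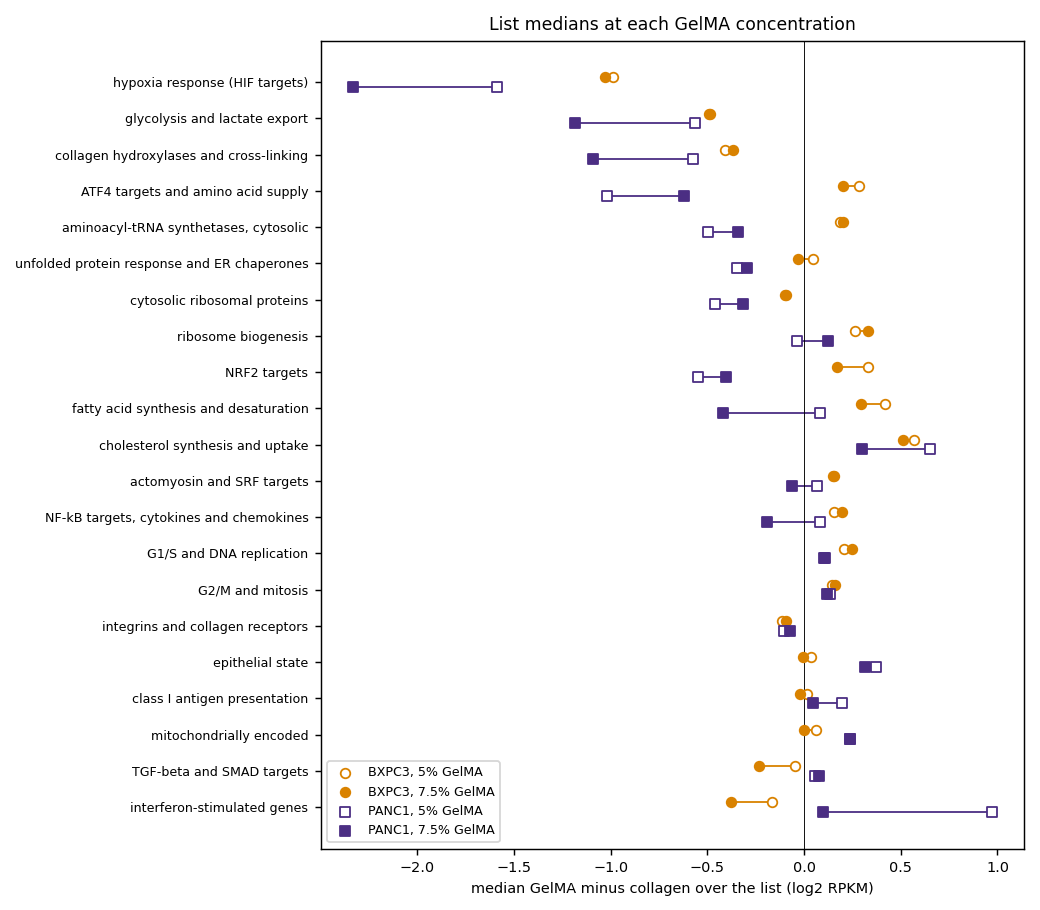
For 21 lists, the median GelMA minus collagen difference (log2 RPKM) is plotted for BXPC3 (orange circles) and PANC1 (purple squares), open at 5% GelMA and filled at 7.5%. Both concentrations of a line use the same collagen libraries. BXPC3 points nearly coincide in most lists, while PANC1 hypoxia medians lie at -1.59 and -2.33 and interferon medians at 0.97 and 0.10.

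Few markers of other cell types reached 1 RPKM. At most 2 of 7 endothelial, 3 of 11 fibroblast and stellate, 5 of 12 immune and 2 of 11 acinar and endocrine markers did so in both libraries of any group. The summed level of the 3 endothelial markers in the table was at most 4.12 RPKM in any library. For the 4 fibroblast and stellate markers in the table, the summed level of 20.18 to 20.53 RPKM in BXPC3 collagen and 19.26 to 20.56 in BXPC3 GelMA, against 141.77 to 148.20 in PANC1 collagen and 222.77 to 426.00 in PANC1 GelMA, moved with COL1A1. The 5 immune markers in the table summed to 45.41 to 48.50 RPKM in BXPC3 collagen, 54.63 to 79.91 in BXPC3 GelMA, 8.62 to 9.48 in PANC1 collagen and 15.83 to 20.93 in PANC1 GelMA. They included CD14 (line difference -0.06, not called), ITGAM (1.07) and TRBC2 (2.65, a call that 5 leave-outs ended). On the log2(RPKM + 1) scale ITGAM was at 0.68 and TRBC2 at 1.43. The PANC1 collagen libraries of TRBC2 were at 0.98 and -1.93, and its line difference was 4.10 without the first and 1.20 without the second. Of the acinar and endocrine markers, 1 was among the 13005 genes, CEL (1.0), which fell in both lines. Ductal markers summed to 4942.88 RPKM or more in every library. The part of other cells in any result was not tested.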

How the data were processed

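Poly-A RNA of 12 libraries (6 groups of 2, from 2 cell lines on 3 substrates) was analysed. HISAT2 2.1.0 and HTSeq with GRCh38 (hg38) are named in the submitters' processing notes; their roles and settings, the annotation and the strandedness are unknown. The authors deposited 1 table, named as log2 RPKM, of 16299 Ensembl genes, with 0 columns left unmapped. Above the lowest 2541 ranks, the remaining 13758 ranks had equal values in all libraries (tolerance 0.05 log2), so the authors' values were taken to be quantile normalized, which removes any change shared by most genes. The offset added before the log and the depth are unknown, so no counting interval could be given.

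Genes at 1 RPKM or more in at least 2 of 12 libraries (15794) were fitted as 6 group means with limma (version 3.58.1, R version 4.3.3, eBayes with trend), with 6 residual and 3.89 prior degrees of freedom. All adjusted p-values are Benjamini-Hochberg values over those 15794 genes, per comparison, and errors are the fit's SE. The script was tested on simulated data. The genes described, and the 45 gene lists (938 entries, 723 distinct genes among the 13005), were chosen with earlier results of these data known, so no list is independent support and no list was tested as a set. Genes were named by rule: the 8 highest and 8 lowest line differences, the largest opposite, BXPC3-only and larger-in-BXPC3 effects (6 each), the extremes and the gene nearest 0 of each list, 26 regulators and a set of followed genes. Those rules asked for a group mean of at least 2 log2 RPKM in each line, except for list members. Other list members are examples chosen after their values were seen. Some genes that these rules name are not reported here.

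Symbols came from a table of gene names (16250 IDs) and GENCODE 29 (49 IDs), whose GRCh38 positions are given. Promoters are from RefSeq, GRCh38.p14. Alternatives were each library left out in turn, other scalings, filters and offsets, a stricter threshold and a replicate block. Replicate numbers were not shown to pair libraries.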

Additional observations from a re-analysis of the deposited data

Results flagged for a closer look

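The GelMA effect differed between the lines, by the interaction test itself, in 5538 genes, and 949 genes were called in opposite directions. Among the genes named by rule, 12 had a line difference that itself changed by at least 2-fold between 5% and 7.5% GelMA, a test that uses no collagen library. It was lower at 7.5% for CA9 (-4.88), CXCL2 (-2.88), PCDH15 (-2.41), ITGB4 (-1.52), IFI6 (-1.47), TGM2 (-1.25), IFITM1 (-1.04) and COL3A1 (-1.01). It was higher at 7.5% for CHAC1 (1.05), CCN2 (1.06), KRT80, a type II keratin (1.23), and TNS4 (1.97). In CA9 and PCDH15 some of the libraries compared lie under 1 RPKM. Groups of 2 libraries are too small to look for single outlying libraries.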

How the results depend on the processing

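Among the 193 named genes, no called line difference changed sign under an alternative that could be computed for it. The line difference was called for 4790 to 5431 genes with 1 library left out and for 5064 to 5840 under other scalings, filters and offsets, with 45.7% to 49.4% of calls above 0. At an adjusted p under 0.01 the counts were 3629 for the line difference, 3224 for the BXPC3 effect, 2606 and 3414 for the line difference at 5% and 7.5% GelMA, and 480 for opposite directions. The BXPC3 effect was called for 3336 genes without BXPC3 collagen replicate 2, the lowest of the leave-outs, and for up to 5416 genes. The deviations of same-numbered libraries from their group means correlated at -0.086 to 0.13 over 15 pairs of groups, which shows no pairing. With a replicate block 5388 genes were called. The block ended the calls of MT2A and BACH1 among 137 named called genes and added that of EGLN2 (0.29). Of these 137, 19 lost the call in at least 1 leave-out and 10 under at least 1 other setting. Of 1680 list counts recomputed, 1586 stayed within 1.5 times of the main count. The number of libraries, the unknown offset under 1 RPKM and the unknown depth limit small differences and low genes most.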
